A study of Mus musculus with 6 samples.

Results

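The conjugation enzymes of the families Ugt, Sult and Gst were followed in the livers of mice that made viral oncoproteins for a few days. Members were all probe sets with a single gene symbol starting with Ugt1, Ugt2, Ugt3, Sult, Gsta, Gstm, Gstp, Gstt, Gstz, Gstk or Gsto. This gave 54 of 35067 probe sets with 1 symbol, 47 on the Affymetrix array design 430A and 7 on 430B, which stand for 43 of 18194 genes (10 Ugt, 13 Sult and 20 Gst). All 10 Ugt genes were of Ugt2 or Ugt3, since the Ugt1 probe sets name several genes at once. Livers came from male mice of the Hybrid B6SJL background aged 32 to 37 days. Doxycycline at 25 µg/ml and sucrose at 2.5% were in the drinking water of all groups, the wild type included, over 4 days. WT mice carried no transgene. LT mice carried ApoErtTA:TRE2-TAg and were induced to make the SV40 large T (LT) and small t (st) proteins, and 17kT mice carried a transgene pair of the same name and made SV40 17kT, a short relative of large T that shares its N-terminal part, together with st. ApoErtTA is a doxycycline-dependent activator under ApoE control sequences, which are known for activity in hepatocytes, and WT mice lacked it. The activator, small t and the variable T protein can therefore not be told apart in a comparison with WT. Each genotype had 1 array of each design, described by the submitters as single measurements, so no difference has a replicate check and no test was possible.

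Conjugation makes lipophilic compounds water-soluble so that they can leave the body in bile or urine, and the liver is its main site. UDP-glucuronosyltransferases (Ugt) add a sugar from UDP-glucuronic acid to bilirubin, steroids, bile acids and drugs. Sulfotransferases (Sult) add a sulfonate group from PAPS to phenols, hormones and bile acids. Glutathione S-transferases (Gst) join glutathione to reactive electrophiles or use it to reduce peroxides. Many of these genes lie in clusters of close copies, and their transcription in hepatocytes is known to depend on nuclear receptors, on HNF1, HNF4 and C/EBP factors, and on NRF2 at antioxidant response elements.

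Promoter sequence was at hand for 38 of the 43 genes, as 49 windows of 250 bases that end just before an annotated start (RefSeq, GRCm38.p6). Gsta4, Gstt2, Sult2a2, Sult4a1 and Ugt3a2 had no entry. The promoters of 5 genes are shown, written 5′ to 3′ along the gene's strand. Ugt2b1 and Ugt2b34 are neighbours whose array ratios lay far apart, Ugt2a3 is a further gene of the same cluster with a large fall, Gsta3 was a Gst gene that fell in both transgenic livers and Sult2a8 had the largest fall among the Sult genes. Capitals mark matches, on either strand, to any of 5 motifs searched, listed after the sequences.
Ugt2b1 promoter, chr5:86926504-86926753, minus strand: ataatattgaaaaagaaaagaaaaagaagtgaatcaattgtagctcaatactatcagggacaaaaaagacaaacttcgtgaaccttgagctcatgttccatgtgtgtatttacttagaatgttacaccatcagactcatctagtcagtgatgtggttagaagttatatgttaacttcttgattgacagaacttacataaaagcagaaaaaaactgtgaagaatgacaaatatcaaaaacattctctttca
Ugt2b34 promoter, chr5:86906938-86907187, minus strand: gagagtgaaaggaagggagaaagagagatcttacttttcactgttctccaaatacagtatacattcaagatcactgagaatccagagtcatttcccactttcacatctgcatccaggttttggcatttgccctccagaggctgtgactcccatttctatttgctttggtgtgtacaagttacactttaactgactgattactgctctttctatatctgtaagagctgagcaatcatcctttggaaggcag
Ugt2a3 promoter, chr5:87337196-87337445, minus strand: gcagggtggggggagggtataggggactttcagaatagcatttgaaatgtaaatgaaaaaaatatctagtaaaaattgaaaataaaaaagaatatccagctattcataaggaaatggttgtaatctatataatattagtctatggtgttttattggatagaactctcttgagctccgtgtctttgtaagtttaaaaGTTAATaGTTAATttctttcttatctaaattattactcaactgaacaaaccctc
Gsta3 promoter, chr1:21240335-21240584, plus strand: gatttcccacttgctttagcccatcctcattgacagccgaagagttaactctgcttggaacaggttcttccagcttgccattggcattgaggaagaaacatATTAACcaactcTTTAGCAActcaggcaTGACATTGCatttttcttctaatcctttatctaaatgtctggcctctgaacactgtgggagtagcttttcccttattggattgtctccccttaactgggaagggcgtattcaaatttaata
Sult2a8 promoter, chr7:14446588-14446837, minus strand: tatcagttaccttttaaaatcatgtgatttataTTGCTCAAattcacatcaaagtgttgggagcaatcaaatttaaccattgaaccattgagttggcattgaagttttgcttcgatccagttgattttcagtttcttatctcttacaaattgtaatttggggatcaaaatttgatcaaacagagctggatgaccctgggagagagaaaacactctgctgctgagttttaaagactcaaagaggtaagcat

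The motifs were GTTAAT for HNF1, TGACNNNGC for the antioxidant response element, GCGTG for AHR, CAAAGTCCA for HNF4 and TTGCNNAA for C/EBP, each searched on both strands. Ugt2a3 held GTTAAT at 2 places, 54 to 49 and 47 to 42 bases before the start. Gsta3 held 3 different motifs close together, an HNF1 match 149 to 144 bases, a C/EBP match 137 to 130 bases and an antioxidant response element match 121 to 113 bases before the start. Sult2a8 held a C/EBP match 217 to 210 bases before the start. The windows of Ugt2b1 and Ugt2b34 held none of these letters. GTTAAT was in 12.9% of the 31 windows of member genes that fell in LT or 17kT (22 genes), in 5.6% of the 18 windows of the other members and in 6.4% of all 32851 promoter windows. TTGCNNAA was in 16.1%, 11.1% and 9.6% of the same windows, TGACNNNGC in 6.5%, 5.6% and 10.2%, and GCGTG in 19.4%, 16.7% and 28.2%. CAAAGTCCA was in none of the member windows and in 0.4% of all windows. The GTTAAT share among members that fell rests on 4 windows. A match is a description of the letters and not a bound site.

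The deposited values were MAS5 signals, a linear intensity per probe set that can be compared for the same probe set across arrays of 1 design but not between probe sets. Signals were floored at the median of their design, 90.4 on 430A and 140.5 on 430B, and between 47.0% and 52.0% of probe sets lay above it on each array. A gene was said to rise or fall when its floored signal was at least 2-fold apart. No direction was read where both signals were at or below the floor. Where only 1 was, the ratio is a bound, and such a gene could move only towards the other array. The 100 probe sets present on both designs gave a technical spread (SD) of the log2 ratio, which was 0.23 between the LT and WT arrays, 0.28 between 17kT and WT and 0.26 between LT and 17kT. Probe sets of the same gene differed more, with SDs of 0.54, 0.51 and 0.45. The technical SD leaves out a shift between the designs. For the same 100 probe sets the median difference of the log2 ratio, 430A minus 430B, was -0.25, 0.19 and -0.36 in the same order. Ratios of 430A and 430B genes are therefore not on exactly the same scale. The LT arrays were washed on another fluidics station than the WT and 17kT arrays, per the file headers, which cannot be told apart from the LT genotype. The deposited 17kT signals carry more decimals than those of WT and LT. Whether the 17kT arrays were run or processed apart is not stated, and it could not be told apart from the 17kT genotype. The hybridisation controls had median log2 ratios of 17kT against WT of -0.74 on 430A and 0.07 on 430B. For LT against WT they were -0.47 and -0.25. The Gapdh control, a measure of RNA integrity, had a 3′ to 5′ signal ratio of 5.81 and 6.04 on the WT arrays and between 2.85 and 3.53 on the transgenic arrays, while that of the b-Actin control was 2.57 and 2.29 in WT, 2.52 and 2.50 in LT and 2.13 and 1.72 in 17kT. The part of RNA integrity in the differences from WT was not tested.

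Conjugation genes were mostly lower in both transgenic livers than in WT. In LT, 20 of the 36 member genes with a direction fell (55.6%), against 9.01% of all 12776 genes with a direction, and 1 rose (2.8%), against 11.1%. In 17kT, 20 of 35 fell (57.1%), against 8.64% of 12993 genes, and none rose, against 9.97%. The median log2 ratio of the members was -1.04 in LT and -1.36 in 17kT, where the medians of all genes were 0.02 and 0.07. With the members at the floor on both arrays entered at 0, the medians over all 43 were -0.84 and -0.93. Of the members with a direction, 8 in LT and 7 in 17kT gave a bound. The 2 comparisons share the WT arrays. Of 5 other scalings, the signals as deposited nearly repeated the one used here, since the arrays already shared a trimmed mean, and gave no separate check. Of the falls, 14 of 20 in LT and 12 of 20 in 17kT kept their call in all 5 other scalings. Those lost in at least 1 were Gsta2, Gsto1, Gstt3, Sult1b1, Ugt2b5 and Ugt2b36 in LT and Gsta2, Gsta3, Gstm1, Gstp1, Gstz1, Sult1a1, Sult1b1 and Ugt2b5 in 17kT. In 6 scalings of the arrays the median of all genes moved between -0.27 and 0.41 in LT and between -0.06 and 0.47 in 17kT. The members' median stayed between 0.93 and 1.15 below it in LT and between 1.07 and 1.44 below it in 17kT. Except for quantile normalization, a scaling multiplies each array by at most 1 factor, which moves both medians together. The steady gap is therefore no check of the falls. In whole liver, fewer cells of a type and less RNA per cell cannot be told apart.

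**Figure D1:**
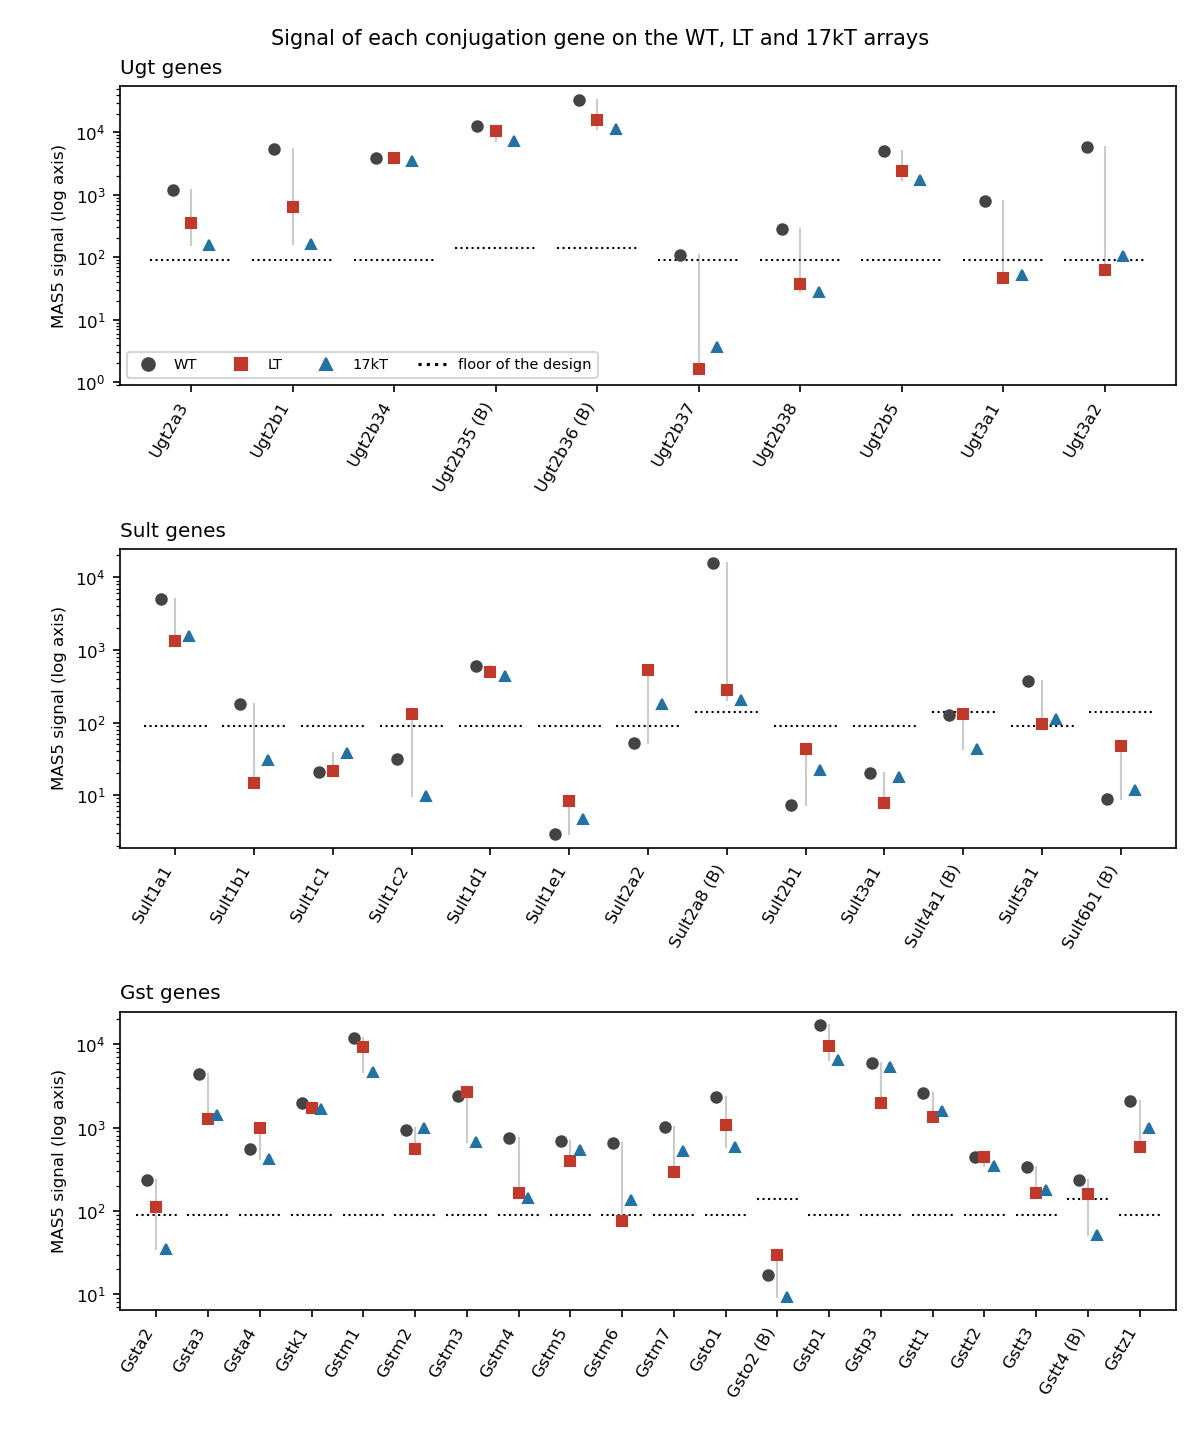
Deposited MAS5 signal (log axis) of the 43 conjugation genes, 1 probe set a gene, on the single WT (circle), LT (square) and 17kT (triangle) array of its design, with the floor of that design as a dotted line and (B) after genes of 430B. Points are to be compared within a gene only. Ugt3a2 and Sult2a8 show wide gaps between WT and both transgenic arrays. The gap of Ugt2b37 lies mostly below the floor, and Sult2a2 lies below the floor in WT and above it in LT and 17kT.

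The Ugt genes had the lowest family median in both comparisons under the scaling used here. Of 10 genes, 7 fell in LT and 7 in 17kT and none rose, with median log2 ratios of -1.36 in LT and -1.60 in 17kT. In the 6 scalings these medians ranged from -1.67 to -1.29 and from -1.77 to -1.40. On the probe set that stood for it, every Ugt gene had a log2 ratio below 0 in both comparisons. For Ugt2b34 and Ugt2b35 the sign changed in at least 1 other scaling. The other Ugt2b34 probe set was above 0 in both, at 0.31 in LT and 0.14 in 17kT.

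Ugt3a2, which uses UDP-sugars other than UDP-glucuronic acid, had signals of 5770 in WT, 63.1 in LT and 105.5 in 17kT. Only the WT array was far above the floor, and the LT signal was below it. Ugt3a2 was at least 63.8-fold lower in LT than in WT (log2 ratio -6.00 at the bound) and 54.7-fold lower in 17kT (-5.77). Its neighbour Ugt3a1, an enzyme that uses N-acetylglucosamine as its sugar, had signals of 783 in WT, 46.5 in LT and 52.8 in 17kT. Both transgenic signals were below the floor, so Ugt3a1 was at least 8.66-fold lower in each.

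Ugt2b1, a glucuronosyltransferase of steroids and drugs whose promoter is shown above, had signals of 5421 in WT, 641 in LT and 162 in 17kT. The order was WT, LT, 17kT, with all 3 above the floor. It fell 8.45-fold in LT (log2 ratio -3.08) and 33.5-fold in 17kT (-5.07). Ugt2a3, known for glucuronidation of bile acids, had the same order, with signals of 1212, 349 and 159, and fell 3.47-fold in LT and 7.63-fold in 17kT. Ugt2b38 had a signal of 284 in WT and was below the floor in LT (37.9) and 17kT (27.6), a fall of at least 3.15-fold in each.

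Ugt2b5 and Ugt2b36, both known as abundant liver enzymes, fell by less. The signals of Ugt2b5 were 4989 in WT, 2415 in LT and 1751 in 17kT, with falls of 2.07-fold and 2.85-fold. The signals of Ugt2b36 were 33247, 15769.5 and 11435, with falls of 2.11-fold and 2.91-fold. Both falls in LT were just past the 2-fold rule, and each kept its call in 3 of the 5 other scalings. Ugt2b35 had signals of 12547, 10495 and 7297 and did not pass the rule, with log2 ratios of -0.26 and -0.78. Ugt2b34 had signals of 3922 in WT, 3914 in LT and 3459 in 17kT, which is nearly level, with log2 ratios of -0.00 and -0.18. Ugt2b37 was little above the floor in WT (108) and below it in both transgenic livers, at 1.60 and 3.66, which gave a bound of only 1.19-fold lower in each.

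The Sult genes held the single rise among the members and, in 17kT, their largest fall. Of 13 genes, 4 fell and 1 rose among 7 with a direction in LT, and 4 fell and none rose among 6 in 17kT, with medians of -1.01 and -1.37. Over the 6 scalings these ranged from -1.01 to -0.29 and from -1.48 to -0.82. Over all 13 genes, with those at the floor on both arrays entered at 0, both medians were 0. The LT median is the bound of a single gene, Sult1b1, and was -0.13 with the floor at the 25th and -0.40 with it at the 75th percentile. Sult2a8, a hydroxysteroid sulfotransferase of mouse liver known to act on bile acids, had signals of 15913 in WT, 276 in LT and 202 in 17kT. The transgenic signals were above the floor of 430B but close to it. Sult2a8 fell 57.6-fold in LT (log2 ratio -5.85) and 78.9-fold in 17kT (-6.30), and was past the rule in all 6 scalings. Its relative Sult2a2 went the other way, with signals of 51.4 in WT, below the floor, 521 in LT and 178 in 17kT. Sult2a2, also a hydroxysteroid sulfotransferase and known for higher levels in female than in male mouse liver, rose at least 5.76-fold in LT. In 17kT its bound was 1.97-fold, which is not past the rule.

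Sult1a1, the phenol sulfotransferase, had signals of 5091 in WT, 1334 in LT and 1547 in 17kT. It fell 3.82-fold in LT and 3.29-fold in 17kT. Sult5a1 had signals of 367, 96.5 and 111, with falls of 3.81-fold and 3.31-fold. Both genes were high in WT and nearly level between LT and 17kT, and for Sult5a1 the transgenic signals were close to the floor. Sult1b1, which sulfates thyroid hormones, was at 183 in WT and below the floor at 14.8 in LT and 30.1 in 17kT, a fall of at least 2.02-fold in each. Sult1d1, known for sulfation of catecholamines, had signals of 609, 495 and 435 with log2 ratios of -0.30 and -0.49, and its other probe set gave 0.64 in LT. Sult1c2 was above the floor in LT alone (132, against 31.2 in WT and 9.65 in 17kT), at least 1.46-fold higher than in WT. Sult1c1, Sult1e1, Sult2b1, Sult3a1, Sult4a1 and Sult6b1 were at or below the floor on all 3 arrays and had no direction, among them Sult1e1, the estrogen sulfotransferase.

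**Figure D2:**
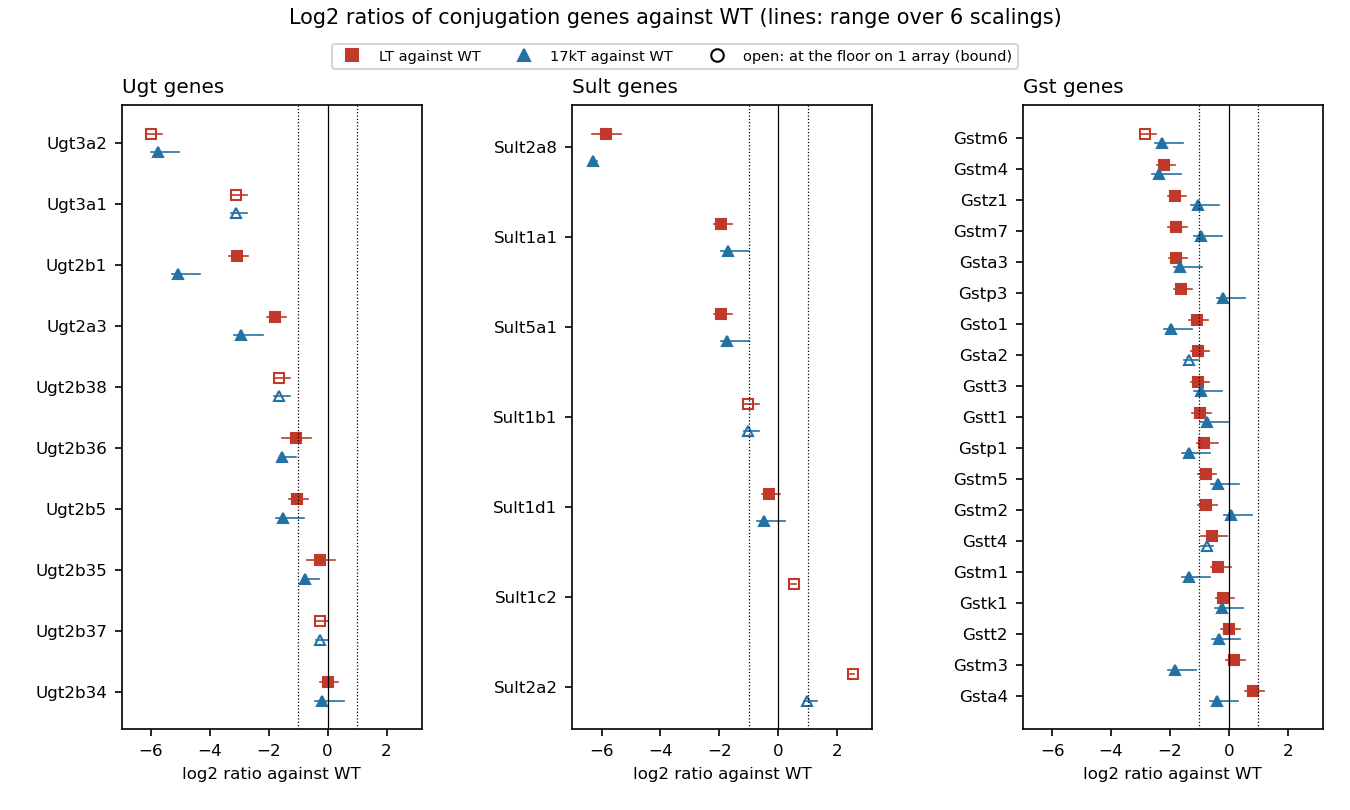
Log2 ratio of LT (squares) and 17kT (triangles) against WT for each conjugation gene with a direction, by family, with lines for the range over 6 scalings, dotted lines at 2-fold and open symbols for bounds. In LT 20 genes and in 17kT 20 genes lie at or beyond the 2-fold line on the lower side, and Sult2a2 in LT is the only gene beyond it on the higher side.

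Of 20 Gst genes, 19 had a direction and 9 fell in LT and 9 in 17kT, while none rose. Their medians were -0.98 in LT and -0.95 in 17kT, and ranged over the 6 scalings from -1.24 to -0.61 and from -1.18 to -0.33. Gsto2 was below the floor on all 3 arrays.

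Among the alpha class, which is known for reduction of lipid peroxides, Gsta3 had signals of 4395 in WT, 1279.5 in LT and 1411 in 17kT. Both transgenic livers were low, with falls of 3.43-fold and 3.11-fold, and a further Gsta3 probe set gave log2 ratios of -2.58 and -2.63. Gsta2 had signals of 232, 112.5 and 35.0 and fell 2.06-fold in LT and at least 2.57-fold in 17kT, where it was below the floor. Gsta4, which conjugates the lipid peroxidation product 4-hydroxynonenal, had signals of 558 in WT, 983 in LT and 419.5 in 17kT. LT was the highest of the 3 arrays, with log2 ratios of 0.82 in LT and -0.41 in 17kT, neither past the 2-fold rule.

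Genes of the mu class, a cluster of close copies, had different patterns over the 3 arrays. Gstm4 had signals of 742 in WT, 163 in LT and 145 in 17kT and fell 4.56-fold and 5.13-fold. Gstm6 had signals of 651, 76.1 and 135 and fell at least 7.20-fold in LT, where it was below the floor, and 4.83-fold in 17kT. Both genes were high in WT alone.

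Gstm3 was instead low in 17kT alone, with signals of 2412 in WT, 2705 in LT and 679 in 17kT. It fell 3.55-fold in 17kT, and its log2 ratio in LT was 0.17. The other Gstm3 probe set gave -2.54 in 17kT and -0.43 in LT, so the sign in LT is not settled. Gstm1, an abundant liver transferase, had signals of 11985, 9371 and 4654 and fell 2.57-fold in 17kT, with a log2 ratio of -0.35 in LT. Its 4 probe sets gave ratios from -1.36 to -0.34 in 17kT, and of the other 3 only an _x_at probe set passed the rule (-1.24). Gstm7 was lowest in LT, with signals of 1026, 295 and 530 and a fall of 3.47-fold. Its other probe set, close to the floor on all 3 arrays, gave a log2 ratio of -0.17 in LT, so the Gstm7 call rests on 1 probe set. Gstm2 (941, 548 and 984) and Gstm5 (689, 399 and 536) did not pass the rule, with log2 ratios of -0.78 and -0.79 in LT and of 0.06 and -0.36 in 17kT.

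The pi class had 2 measured genes. Gstp1, the abundant pi-class transferase, had signals of 16771 in WT, 9385 in LT and 6517 in 17kT. It fell 2.57-fold in 17kT, a call kept in 3 of the 5 other scalings, and its log2 ratio in LT was -0.84, with no 2-fold difference between LT and 17kT (0.53). Gstp3, of the same gene cluster, had signals of 6011 in WT, 1966 in LT and 5293 in 17kT. LT alone was low, a fall of 3.06-fold, while the log2 ratio in 17kT was -0.18.

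Gstz1, the maleylacetoacetate isomerase of tyrosine breakdown, had signals of 2063 in WT, 587.5 in LT and 995 in 17kT. It fell 3.51-fold in LT and 2.07-fold in 17kT, the latter just past the rule. Gsto1, which reduces dehydroascorbate, had signals of 2299, 1082 and 592, with falls of 2.13-fold and 3.89-fold. Of the theta class, Gstt3 (341, 165.5 and 178) fell 2.06-fold in LT, and its log2 ratio in 17kT was -0.93. Gstt1 (2631, 1330.3 and 1570.4) came close to the rule in LT at 1.98-fold, with a log2 ratio of -0.74 in 17kT. Gstt2 (440.1, 440.5 and 346), Gstt4 (237, 160.5 and 51.5) and Gstk1 (1961, 1725 and 1665), the mitochondrial and peroxisomal kappa-class enzyme, did not pass it in either comparison. Gstt4 was below the floor in 17kT, so its fall there was at least 1.68-fold and may be larger.

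LT was compared directly with 17kT to set the large T protein against its short relative. Of 32 members with a direction, 6 were higher in LT (18.8%), against 4.47% of all 12542 genes, and 1 was lower (3.1%), against 4.23%. The median log2 ratio was 0.19, and 0.00 over all 43 members, where that of all genes was -0.03. In the 6 scalings the members' median ranged from -0.00 to 0.34, so its sign is not settled. Gstm3 (3.98-fold), Ugt2b1 (3.96-fold), Sult2a2 (2.93-fold), Gsta4 (2.34-fold), Ugt2a3 (2.20-fold) and Gstm1 (2.01-fold) were higher in LT, and Gstp3 was 2.69-fold lower. Gstm3, Ugt2b1, Sult2a2 and Gstp3 kept these calls in all 6 scalings. Gsta4 and Ugt2a3 kept theirs in 4 of the 5 other scalings and Gstm1 in 2, and another Gstm1 probe set gave a log2 ratio of -0.33. Gsto1 (log2 ratio 0.87), Gstm2 (-0.84), Gstm7 (-0.84) and Gstz1 (-0.76) came next without passing the rule, but the other probe sets of Gsto1 (-0.32) and Gstm7 (0.17) had the opposite sign. Sult1a1 (-0.21), Sult5a1 (-0.20), Gsta3 (-0.14), Gstm4 (0.17) and Gstk1 (0.05) were among those that differed by less than the technical SD of 0.26. Sult1d1 had a log2 ratio of 0.19, but its other probe set gave 1.06, which would pass the rule.

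**Figure D3:**
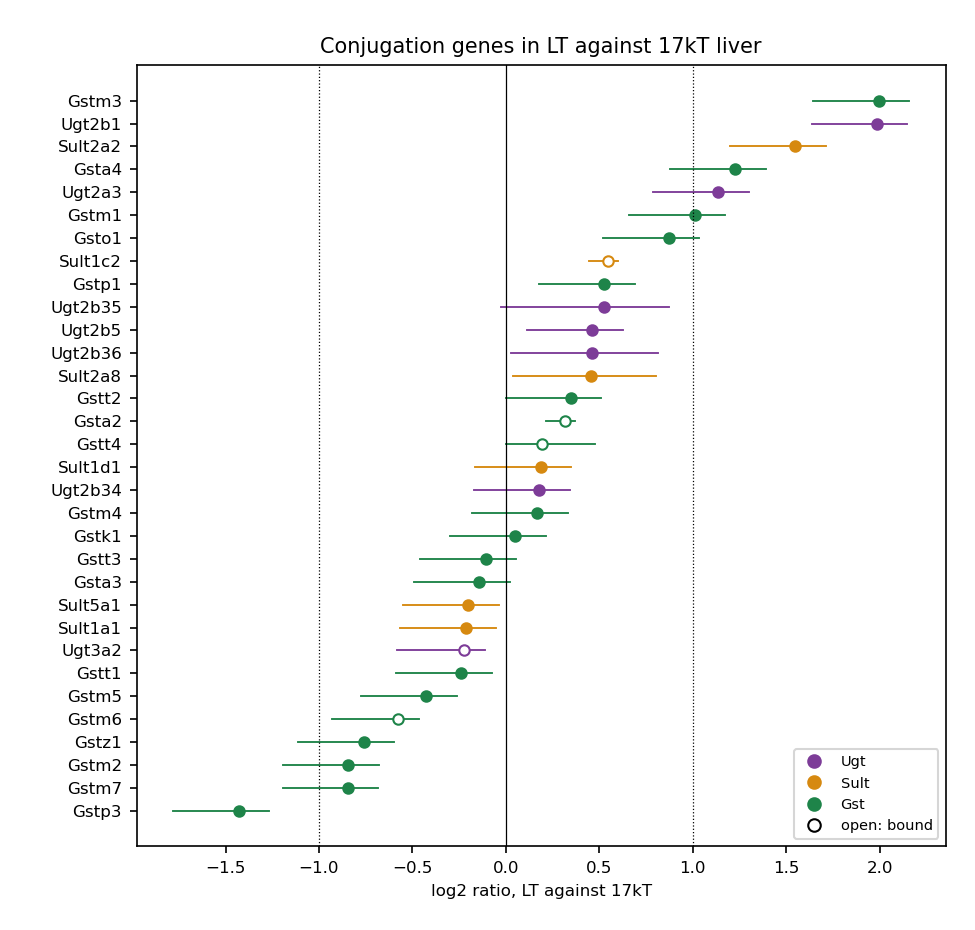
Log2 ratio of LT against 17kT for the 32 conjugation genes with a direction, coloured by family, with lines for the range over 6 scalings, open symbols for bounds and dotted lines at 2-fold. Gstm3 and Ugt2b1 lie near a log2 ratio of 2 and Gstp3 at -1.43.

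Ratios lay far apart between some neighbouring genes. The Ugt2 genes lie on chromosome 5 in the order Ugt2b34, Ugt2b1, Ugt2b35, Ugt2b36, Ugt2b5, Ugt2b37, Ugt2a3 and Ugt2b38, followed by Ugt2a1 and Ugt2a2 and by Sult1b1, Sult1d1 and Sult1e1. Ugt2b34, at its end, had log2 ratios of -0.00 and -0.18, and the adjacent Ugt2b1 had -3.08 and -5.07. Ugt2b35, on the other side of Ugt2b1, had -0.26 and -0.78. In the Gstm cluster on chromosome 3, in the order Gstm5, Gstm7, Gstm6, Gstm3, Gstm2, Gstm1 and Gstm4, the lowest ratio in LT was that of Gstm6 (-2.85 at the bound) and its neighbour Gstm3 had the highest (0.17), although the other Gstm3 probe set gave -0.43. Genes of these clusters are close in sequence, so the split between copies is uncertain. The probe sets used for Ugt2b34, Gstm3 and Ugt3a1 are of the _s_at kind, which can bind transcripts of more than 1 gene. Each of these genes has another probe set that is not of this kind. In LT and 17kT it gave log2 ratios of 0.31 and 0.14 for Ugt2b34 and of -0.43 and -2.54 for Gstm3. For Ugt3a1 it gave -2.46 at the bound in both.

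**Figure D4:**
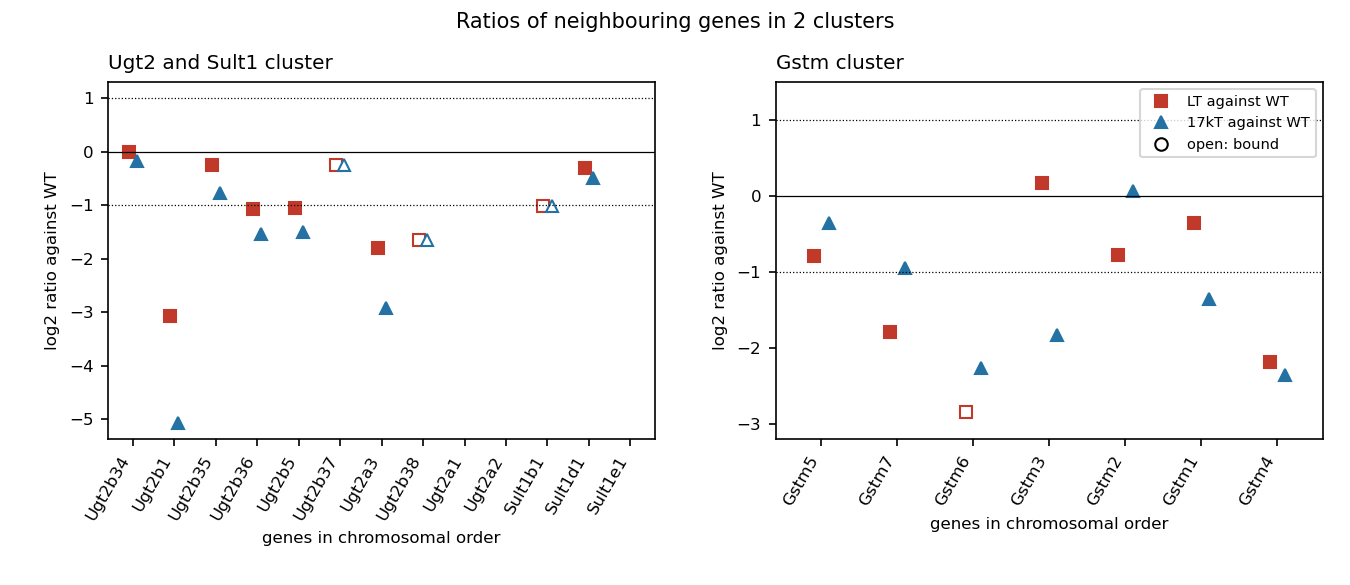
Log2 ratio against WT of LT (squares) and 17kT (triangles) for genes in chromosomal order, Ugt2 and Sult1 genes of chromosome 5 on the left and Gstm genes of chromosome 3 on the right, with open symbols for bounds and dotted lines at 2-fold. Genes without a point had no direction or no probe set of their own. Ugt2b1 lies far below both neighbours, and the Gstm3 probe set shown is above 0 in LT and below -1 in 17kT.

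Genes that supply the donor molecules were followed in a list of their own. Of 16 cofactor genes with a direction, 4 fell in LT and 4 fell and 1 rose in 17kT, with medians of -0.35 and -0.05, against shares over all genes of 9.01% that fell in LT and of 8.64% that fell and 9.97% that rose in 17kT. The sulfate transporter Slc26a1 had signals of 782 in WT, 129 in LT and 84.3 in 17kT and fell 6.08-fold and at least 8.66-fold. Cth, which makes cysteine for glutathione, had log2 ratios of -2.14 and -1.74. Gclc, the catalytic subunit of the first enzyme of glutathione synthesis, fell in both (-1.07 and -1.05), its partner Gclm in 17kT (-0.56 in LT and -1.10), and Papss2, which makes PAPS, in LT (-1.12, and -0.08 in 17kT). Glutathione synthetase, Gss, rose in 17kT (0.37 in LT and 1.12). The calls of Gclc, Gclm, Papss2 and Gss were not kept in all 6 scalings. Ugdh, which makes UDP-glucuronic acid and is named after its values were seen, was nearly level, with signals of 1545 in WT, 1546 in LT and 1753 in 17kT.

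Transferases outside the 3 families included further large falls. Of 17 with a direction, 7 fell and 1 rose in LT and 8 fell and none rose in 17kT, with medians of -0.53 and -0.38. The shares over all genes were 9.01% that fell and 11.1% that rose in LT, and 8.64% and 9.97% in 17kT. Inmt, an indole N-methyltransferase, had signals of 7947, 483 and 508, with log2 ratios of -4.04 and -3.97. The acyl-CoA synthetase Acsm1 had -3.52 and -3.40, and Acsm3 had -1.28 and -1.80. Among those listed, both enzymes that join amino acids to acyl-CoA fell, Baat for bile acids (-1.32 and -2.29) and Glyat for glycine (-1.48 and -1.56). Gstcd rose in LT (1.37, and 0.87 in 17kT). This rise, the falls of Acsm3 and Baat in LT and that of Glyat in 17kT were not kept in all 6 scalings.

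For hydrolysis of conjugates and the mercapturate steps that trim glutathione conjugates, 3 of 10 genes fell in LT and 5 of 10 in 17kT, with medians of -0.69 and -1.01. Kyat1, a cysteine conjugate beta-lyase, had signals of 2242, 225 and 189, with log2 ratios of -3.32 and -3.57. Kyat3 (-2.40 and -1.67) and the aminoacylase Acy3 (-1.76 and -1.72) fell in both, and Ggt6 (-0.99 and -2.18) and Anpep (-0.59 and -1.62) in 17kT. Among exporters, 2 of 9 rose and 2 fell in LT, and 1 of 10 rose and 2 fell in 17kT, with medians of -0.46 and 0.25. Over all genes 11.1% rose and 9.01% fell in LT and 9.97% and 8.64% in 17kT, so the 1 rise among 10 exporters in 17kT is at the share of all genes. The 17kT median is the midpoint of the bounds of Abcc1 (0.25) and Abcb1a (0.26), which were below the floor in WT and could only be above 0. Abcc2, the canalicular exporter of conjugates, had signals of 242 in WT, 118 in LT and 538 in 17kT. It fell 2.05-fold in LT and rose 2.22-fold in 17kT. Neither call held in all 6 scalings, where its log2 ratio reached -0.67 in LT and 0.92 in 17kT. Abcc6 fell in both (-1.62 and -1.15) and Abcc3, a basolateral exporter, in 17kT (-0.52 in LT and -1.03). Abcc4 and Abcb1a were below the floor in WT and rose in LT (at least 2.32-fold and 2.19-fold), with bounds of 0.56 and 0.26 on the log2 scale in 17kT. The rise of Abcc4 in LT and the 17kT falls of Kyat3, Acy3, Anpep, Abcc3 and Abcc6 were not kept in all 6 scalings.

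**Figure D5:**
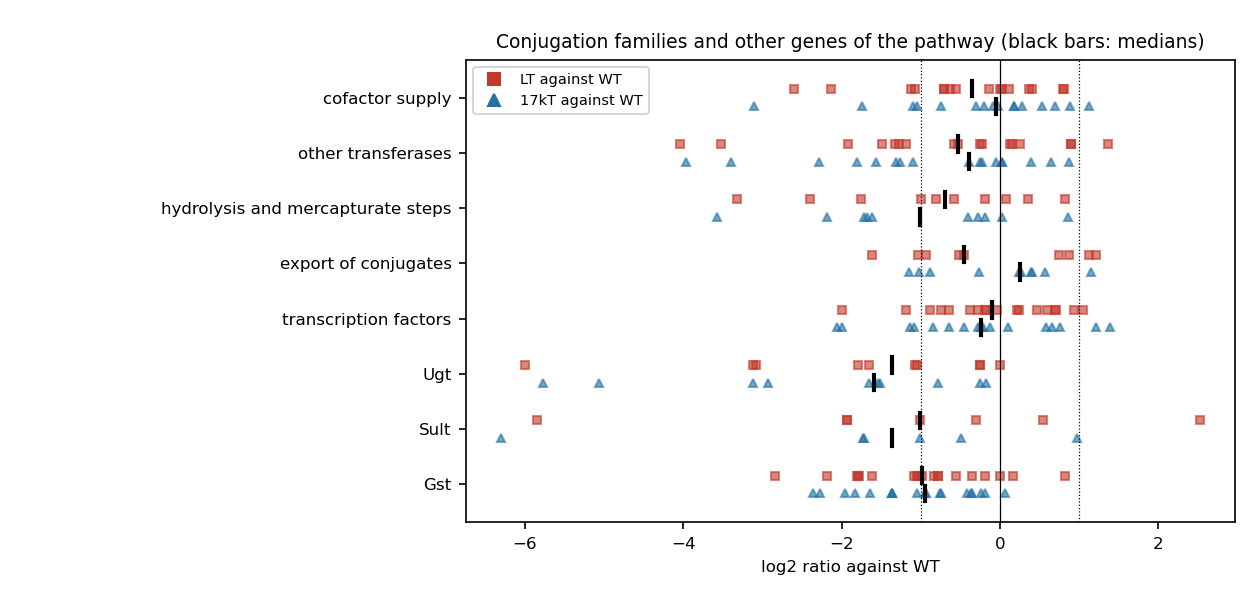
Log2 ratios against WT of LT (squares) and 17kT (triangles) for genes with a direction in 5 lists of other conjugation genes and in the 3 families, with black bars for the medians and dotted lines at 2-fold. The family medians lie between -1.60 and -0.95, and those of cofactor supply at -0.35 and -0.05.

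Of the transcription factors known for control of these genes, 1 rose and 2 fell among 18 in LT and 2 rose and 4 fell among 17 in 17kT, with medians of -0.11 and -0.24. The LT counts are close to the shares over all genes (11.1% rose and 9.01% fell), and in 17kT those shares were 9.97% and 8.64%. Nr1i3 (CAR), a xenobiotic receptor, had signals of 359 in WT, 14.6 in LT and 6.39 in 17kT and was at least 3.98-fold lower in both. Nfe2l2 (NRF2) rose in both, with signals of 943, 1955 and 2193 and folds of 2.07 and 2.32. In the 6 scalings its log2 ratio went down to 0.80 in LT and 0.98 in 17kT, so neither rise held in all. Ppara, the fatty acid receptor, fell in both (-1.19 and -1.14), and Cebpa (-0.88 and -2.06) and the bile acid receptor Nr1h4 (-0.74 and -1.09) fell in 17kT. The calls of Ppara and Nr1h4 were also not kept in all 6 scalings. Cux2, a factor known for higher levels in female than in male mouse liver, rose in 17kT (0.70 in LT and 1.40). Nr1i2 (PXR) had log2 ratios of -0.27 and -0.21, Ahr -0.65 and -0.85, and Hnf4a -0.19 and -0.28, none past the rule. These are mRNA signals, which give no measure of a factor's activity.

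Markers of hepatocytes and of other liver cells were read on the same arrays. All 9 hepatocyte markers were above the floor in all 3 genotypes, with a summed signal of 221513 in WT, 142251 in LT and 111411 in 17kT. This sum follows its brightest probe sets, with Ttr alone at 83346 in WT, and is no measure of cell number. Of the 9 hepatocyte markers 3 fell in LT and 5 in 17kT, against 9.01% and 8.64% of all genes, with medians of -0.58 and -1.07. The part of hepatocyte content in the falls of the conjugation genes was not tested. Of 8 bile duct markers, none was above the floor in WT, 2 in LT (Prom1 and Cd24a) and 1 in 17kT, with summed signals of 388, 1279 and 395. The defining markers Krt7, Krt19, Epcam and Sox9 were below it on all 3 arrays. The medians in LT and 17kT were -0.19 and 0.18 for 10 macrophage markers, -0.52 and -0.01 for 9 endothelial markers and -0.45 and 0.01 for 9 stellate cell markers, with 4 B cell markers at -0.27 and -0.04. The 1 T cell marker above the floor had -0.56 and -0.11. Neutrophil markers with a direction, 4 in LT and 3 in 17kT, had medians of 0.63 and 0.19, with S100a8 higher in LT. Both medians come from bounds of markers below the floor in WT, which could only be above 0. Among 3 erythroid markers the median was -0.03 in both, the bound of Klf1. Alas2 was lower in both (-3.81 and -3.63), while Epor was above 0 (0.25 and 0.62). The 3 pancreas acinar markers with a direction had medians of -0.93, the bound of Prss2, and -0.26, the bound of Ctrb1. Cela1 was lower in both (-2.86 and -2.46).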

How the data were processed

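Whole liver RNA was measured on 6 Affymetrix arrays, a 430A and a 430B array per genotype. The authors deposited linear intensity values (signals), for which the submitters' processing notes name MAS5. The sources used here give neither its version nor whether animals were pooled. The 2% trimmed means, from 250.03 to 250.12, show that the arrays had been scaled before deposit. Gene symbols came from the platform annotation.

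With Python 3.11.15, numpy 2.4.6 and pandas 2.3.3, signals were scaled within a design to a common 2% trimmed mean, floored at the median of the design and put on the log2 scale. Of several probe sets of a gene, the brightest relative to the floor stood for it, an _x_at probe set only where no other existed. With 1 array a group there was no test, and a gene was said to rise or fall at 2-fold or more. The steps were tested on simulated data in which the changed genes lay well above the floor, so changes near the floor and bounds were not covered. The number of arrays limits the precision. Members, lists, rules and motifs were chosen with earlier results of these data known. Named were all members at least 2-fold apart in any comparison and the brightest of each family, and of each pathway list at most 6 genes and a few factors fixed by name. Lists of 5 pathways and 10 cell types held 173 entries, of which 155 matched a gene and the others were not analysed here. Alternatives were other scalings, floors, fold rules, probe set choices and single array designs.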

Additional observations from a re-analysis of the deposited data

Results flagged for a closer look

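Gsta4 differed in direction between the transgenic livers. Its log2 ratio was 0.82 in LT against WT and -0.41 in 17kT against WT, from signals of 558 in WT, 983 in LT and 419.5 in 17kT. It was singled out because the single LT array lay above WT and the single 17kT array below it. The difference was not tested, and in at least 1 of the other scalings the 17kT ratio was above 0, at up to 0.31.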

How the results depend on the processing

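No paired analysis was possible because each genotype had 1 array of each design. The number of genes that fell in LT stayed within 1.5 times of 20 under all alternatives but 430B alone, which holds few members and gave 2. The number that fell in 17kT (20) was 12 with scaling to the hybridisation controls, 13 with a 3-fold rule and 2 on 430B alone. Genes that rose in LT (1) numbered 2 with the hybridisation controls or the floor lowered to the 25th percentile, and 0 with it raised to the 75th or on 430B alone. In 17kT (none), 1 rose with the hybridisation controls and 1 when the floor was lowered. For LT against 17kT, the genes higher in LT (6) numbered 3 with the hybridisation controls, 10 with the lower floor, 2 with a 3-fold rule and 0 on 430B alone. Those lower in LT (1) numbered 4, 1, 0 and 0 under the same settings. The Sult median in LT against WT turned to 0.01 when the floor was added as a pseudocount with no filter, where the members at the floor enter near 0.

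The share of all calls that were higher moved with the scaling, from 55.2% to 27.4% (probe sets shared by both designs) and 82.9% (hybridisation controls) for LT against WT, and from 53.6% to 41.8% and 83.5% for 17kT against WT. For LT against 17kT it moved from 51.4% to 22.2% (shared probe sets) and 73.3% (array median).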

Other observations

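The Ugt1a genes share most of their transcript, and 3 probe sets name 8 of them together, so they stood outside the single-symbol rule. The Ugt1 family holds the enzyme that glucuronidates bilirubin. These probe sets had signals of 8637 in WT, 3105 in LT and 3703 in 17kT, of 15053, 6303 and 8816, and of 4664, 1426 and 1422. All 3 were highest in WT. Their log2 ratios were -1.48, -1.26 and -1.71 in LT and -1.22, -0.77 and -1.71 in 17kT, so that 3 of 3 in LT and 2 of 3 in 17kT were past 2-fold. They are overlapping measures of 1 locus and not independent of each other.

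A probe set shared by Gsta1, Gsta2 and Gm3776 had signals of 313 in WT, 346 in LT and 102 in 17kT. Its 17kT signal was low, with a log2 ratio of -1.62 against WT, and its LT ratio was 0.15, where the probe set of Gsta2 alone gave -1.04 in LT. A probe set for Ugt2a1 and Ugt2a2 was below the floor on all 3 arrays, at 51.9, 7.70 and 37.2.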
